A study of Mus musculus with 24 samples.

Results

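The genes described here are *Myc* and *Mycn*, their obligate partner *Max*, the other MAX-binding repressors *Mxd1*, *Mxd3*, *Mxd4*, *Mxi1*, *Mnt* and *Mga*, and the MAX-like gene *Mlx*. These 10 genes were chosen by name, as the rows of the count table whose Ensembl identifiers carry these symbols, out of 53801 genes. Of the 10, 9 passed the filter on low counts, together with 12963 genes in all, and *Mycn* did not. They were followed by RNA sequencing in ER-Hoxb8 cells, a mouse C57BL/6 granulocyte-monocyte progenitor line that is held undifferentiated by an estrogen-regulated Hoxb8 protein while beta-estradiol is present. Beta-estradiol had been washed out of all cells before treatment, the controls included. The 6 groups had 4 libraries each. They were WT-ERG cells with BRD3308, WT-ERG cells with DMSO, P199L-ERG cells with BRD3308, P199L-ERG cells with DMSO, empty vector (BB) cells with BRD3308 and BB cells with DMSO. BRD3308 is an inhibitor of the histone deacetylase HDAC3 and DMSO is its solvent. The deposited description gives 5 µM for 36 h, while other places in the study give other values for dose and time. WT-ERG and P199L-ERG are human ERG proteins expressed from a lentiviral hPGK promoter, and P199L-ERG carries a single amino acid change. All 3 kinds of cell, BB included, are stable lines made by lentiviral transduction of the same cells. The 4 libraries of a group are described as independent experiments. No source used here states separate transductions for the 4 libraries of a group, so a difference between constructs and a difference between derived lines cannot be told apart. The p-values measure the spread between these libraries.

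MYC proteins bind DNA as dimers with MAX, mainly at the E-box motif, and raise the transcription of genes for ribosome production, translation, metabolism and cell division. MXD proteins, MXI1 and MNT also need MAX to bind the same motif, but recruit the SIN3 corepressor with its histone deacetylases. MGA pairs with MAX in a Polycomb complex, and MLX, which also pairs with some MXD proteins and with MNT, is the partner of the glucose-sensing factors MondoA and ChREBP. In myeloid progenitors MYC accompanies proliferation, and a shift from MYC-MAX to MXD-MAX is a known feature of terminal granulocyte differentiation.

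The promoters bear on how the network refers to itself, since its proteins bind the E-box. In RefSeq windows of 250 bases before to 50 bases after each gene start (build GRCm38.p6), 9 of the 10 genes had at least 1 window, and *Mxi1* had 3. *Myc* had no window, so its promoter was not searched. The E-box CACGTG, which reads the same on both strands, was found in 4 of the 9, *Max*, *Mlx*, *Mnt* and *Mxd4*, against 8.09% of all 27025 genes with a window. In *Max* the motif began 3 bases before the start and ran across it. The ETS-type motif CCGGAAG, searched on both strands, was in the windows of 0 of the 9 genes, against 9.93% of all genes. At that share, a count of 0 among 9 genes says little. The 2 motifs do not overlap each other in these windows. The 250 bases upstream are shown for the 3 genes whose E-box lies wholly upstream and, as sequences without the motif, for *Mxd1* and *Mxd3*, the members that rose with BRD3308 in at least 2 constructs. *Mxi1*, *Mga* and *Mycn* had no E-box in their windows either, and of these *Mxi1* and *Mga* were not called higher with BRD3308 in any construct. *Mxd1* and *Mxd3* were picked for display by their change in expression, so the sequences shown cannot relate the motif to that change. Such a relation was not tested. Capitals mark the E-box, which begins 123 bases before the start in *Mnt*, 40 bases in *Mlx* and 219 bases in *Mxd4*. *Mnt* (chr11:74830674-74830923) and *Mlx* (chr11:101087040-101087289) are on the plus strand. *Mxd4* (chr5:34187711-34187960), *Mxd1* (chr6:86669160-86669409) and *Mxd3* (chr13:55329732-55329981) are on the minus strand.
Mnt: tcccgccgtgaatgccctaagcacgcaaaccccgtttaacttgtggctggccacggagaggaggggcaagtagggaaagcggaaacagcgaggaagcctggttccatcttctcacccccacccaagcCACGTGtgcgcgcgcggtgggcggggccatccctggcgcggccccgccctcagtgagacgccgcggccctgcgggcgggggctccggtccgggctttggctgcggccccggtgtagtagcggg
Mlx: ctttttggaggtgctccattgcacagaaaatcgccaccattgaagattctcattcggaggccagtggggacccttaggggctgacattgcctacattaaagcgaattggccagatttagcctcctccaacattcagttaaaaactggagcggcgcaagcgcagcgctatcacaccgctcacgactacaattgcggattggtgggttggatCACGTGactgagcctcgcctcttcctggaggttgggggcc
Mxd4: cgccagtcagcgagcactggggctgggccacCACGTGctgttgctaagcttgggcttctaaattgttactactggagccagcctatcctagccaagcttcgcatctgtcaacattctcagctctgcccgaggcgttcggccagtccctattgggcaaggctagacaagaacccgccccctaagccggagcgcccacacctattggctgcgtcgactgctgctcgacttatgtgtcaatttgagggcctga
Mxd1: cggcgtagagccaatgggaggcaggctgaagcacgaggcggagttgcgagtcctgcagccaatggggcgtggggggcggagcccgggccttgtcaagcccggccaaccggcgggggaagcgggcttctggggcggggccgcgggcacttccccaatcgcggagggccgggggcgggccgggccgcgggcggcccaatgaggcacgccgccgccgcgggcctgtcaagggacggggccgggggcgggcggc
Mxd3: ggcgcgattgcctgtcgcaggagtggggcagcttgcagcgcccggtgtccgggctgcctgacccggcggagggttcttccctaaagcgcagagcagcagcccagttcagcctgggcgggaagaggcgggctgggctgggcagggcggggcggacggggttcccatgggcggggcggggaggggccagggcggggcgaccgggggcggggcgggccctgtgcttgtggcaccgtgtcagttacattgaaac

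In GRCm38, *Myc* (ENSMUSG00000022346) lies at chr15:61985391-61990374 on the plus strand and *Max* (ENSMUSG00000059436) at chr12:76937269-76962201 on the minus strand. *Mnt* spans chr11:74830920-74845725 and *Mlx* chr11:101087277-101092207, both on the plus strand, and *Mxd1* spans chr6:86647042-86669161 and *Mxd3* chr13:55325168-55329823, both on the minus strand. Libraries held 12510036 to 16280939 counts. None was a copy of another. The libraries numbered 4 of WT-ERG and of P199L-ERG with DMSO stood apart, with deviations that correlated with exon length across 12950 genes at r = -0.24 and r = -0.29, against -0.10 to 0.24 in the other libraries. The cells had the markers of their label, with *Kit*, *Mpo* and *Elane* among 8 of 8 progenitor genes that passed the filter. All 5 T cell markers had at most 10 counts in every library.

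By level per length, *Myc* was the most abundant member, with a mean over the groups of 224 TPM, a count scaled to exon length and to the sum over all genes. *Mlx* had 154 TPM and *Max* 116 TPM. The MAX-binding repressors were lower, with mean levels of 37.4 TPM for *Mnt*, 37.0 TPM for *Mxi1*, 35.3 TPM for *Mxd4*, 23.9 TPM for *Mxd1*, 20.4 TPM for *Mxd3* and 15.7 TPM for *Mga*. *Mycn*, the MYC paralogue of neural and stem cells, had 0 to 3 counts per library and 19 counts in all 24 libraries, and *Mycl*, the remaining paralogue, had at most 1. *Myc* was therefore the only MYC paralogue with more than a few counts. The values of the 9 tested genes that follow are CPM, counts scaled to the size and composition of each library, and fold changes are between groups of 4 libraries.

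**Figure D1:**
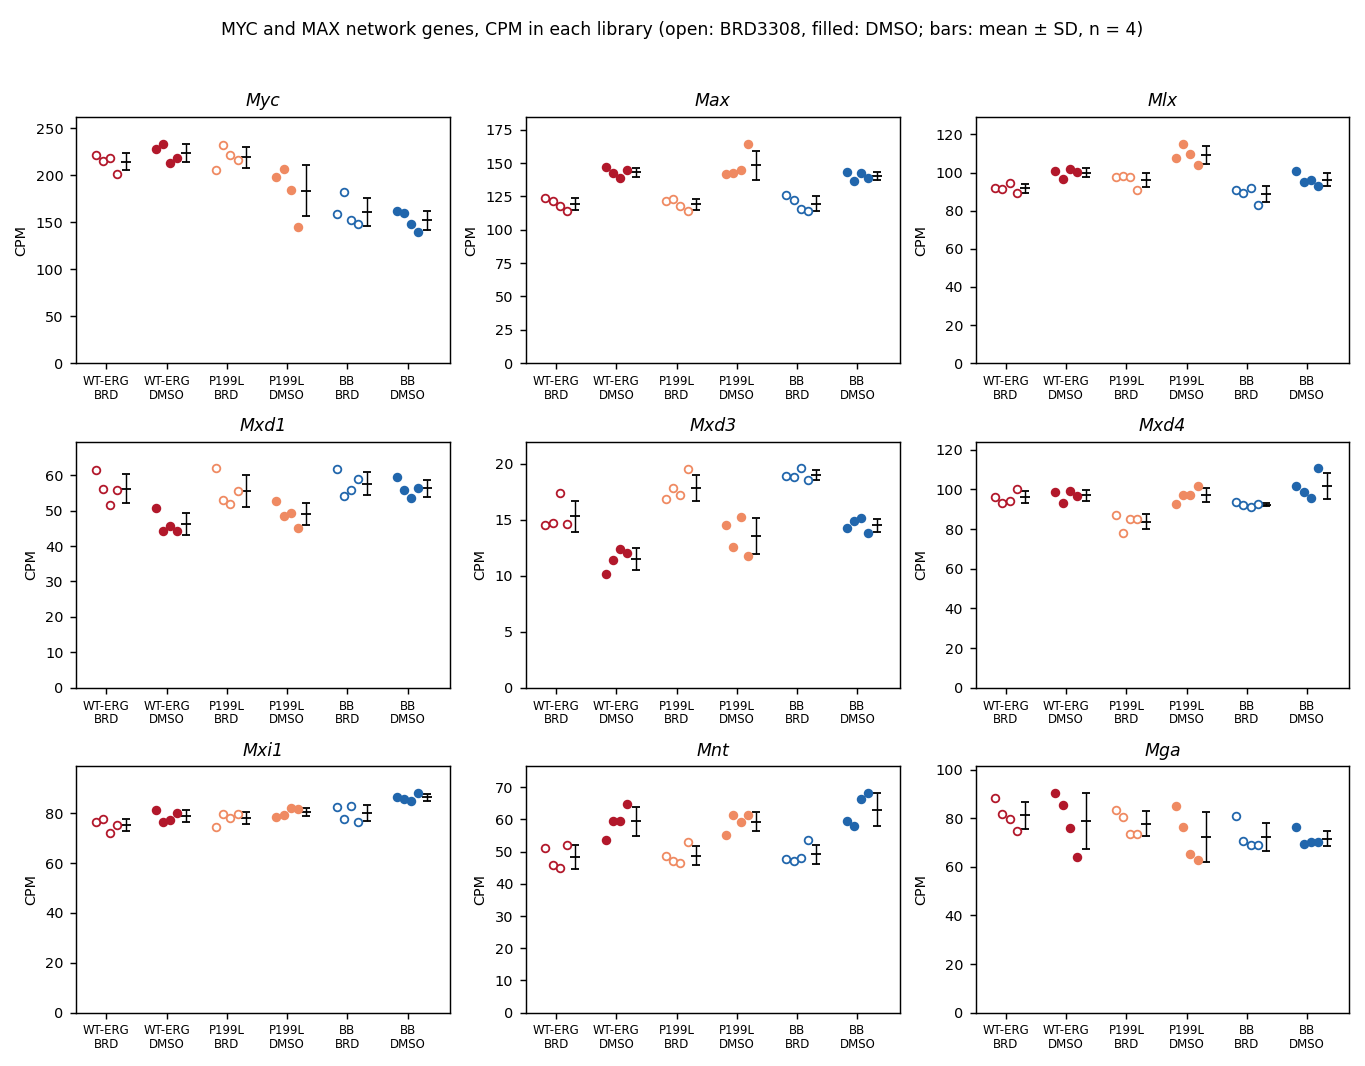
CPM of the 9 tested network genes in each of 24 libraries, by group on the horizontal axis. Open circles are BRD3308 and filled circles DMSO, coloured by construct, and bars give the mean and SD of 4 libraries. The *Myc* values of WT-ERG cells lie above those of BB cells with either treatment, and *Max* and *Mnt* lie lower with BRD3308 in every construct.

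The first question was how the ERG constructs affected the network without the inhibitor. *Myc* had 229, 234, 214 and 219 CPM in WT-ERG cells with DMSO. In P199L-ERG cells with DMSO it had 198, 207, 184 and 145 CPM. BB cells with DMSO had 162, 159, 148 and 139.7 CPM. All 4 WT-ERG libraries were above all BB libraries, while the P199L-ERG libraries spread from the BB range to just below the WT-ERG range, with replicate 4 lowest. *Myc* was 0.55 ± 0.07 higher for WT-ERG against BB on the log2 scale (log2 fold change ± SE), a level 46.9% higher, with an adjusted p of 1.05e-06 from edgeR's quasi-likelihood test. In P199L-ERG cells it was 0.27 ± 0.07 higher than in BB cells (adjusted p = 0.0075), although 1 P199L-ERG library lay within the BB range. Between the ERG constructs, *Myc* was 0.29 ± 0.07 lower in P199L-ERG than in WT-ERG cells (adjusted p = 0.0194). That call rests on few libraries. Without replicate 4 of the P199L-ERG DMSO cells the difference was -0.18 (adjusted p = 0.0753), without WT-ERG replicate 1 it was -0.28 (0.056), without WT-ERG replicate 2 it was -0.26 (0.0771), and with these groups fitted alone it was -0.29 (0.225). The P199L-ERG to BB difference was 0.26 (adjusted p = 0.0821) with these groups fitted alone, and 0.36 (2.27e-05) without P199L-ERG replicate 4.

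Among the 9 tested genes, 1 was higher and 3 were lower for WT-ERG against BB, where 29.7% of all genes were called, 15.6% higher and 14.1% lower. For P199L-ERG against BB, 2 were higher and 2 lower, where 28.2% of all genes were called, 15.3% higher and 12.9% lower. For P199L-ERG against WT-ERG, 0 were higher and 1 was lower, where 4.67% of all genes were called, 2.23% higher and 2.45% lower. Markers of other myeloid cells differed as well. The summed level of 8 monocyte and macrophage genes was 800.0 to 881 CPM in WT-ERG and 1066 to 1157 CPM in P199L-ERG cells, against 1776 to 1938 CPM in BB cells, with 5 of the 8 lower and 1, *Ccr2*, higher in each ERG construct. The sum of 6 mast cell and basophil genes was 303 to 338 CPM and 231 to 277 CPM, against 125 to 137 CPM. The sum of 5 megakaryocyte genes was 63.6 to 69.7 CPM and 44.8 to 47.8 CPM, against 24.3 to 28.3 CPM. Of the 4 tested, 1 was higher and 1 lower in each ERG construct. *Itga2b* had means of 54.2 and 35.5 CPM, against 12.8 CPM, and *Gp9* 3.82 and 3.47 CPM, against 5.82 CPM. The sum of 5 B cell genes was 29.0 to 38.3 CPM and 30.7 to 33.6 CPM, against 81.7 to 92.9 CPM. Of the mast cell and basophil genes *Fcer1a* had 0 counts in every library. Neutrophil genes were split. Of 9 tested, 3 rose and 4 fell for WT-ERG against BB, and 1 rose and 5 fell for P199L-ERG against BB. The sum of 10 neutrophil genes was 2938 to 4062 CPM in WT-ERG and 2587 to 3547.5 CPM in P199L-ERG cells. Both ranges overlapped the 3493 to 4347 CPM of BB cells. *S100a9* had means of 1091 and 733 CPM, against 715 CPM, and *Ngp* 232 and 322 CPM, against 857 CPM. The part of these cell types in the differences between constructs was not tested. The 3 lower genes in WT-ERG cells were *Mxd1*, *Mxd3* and *Mxi1*, all MXD-family repressors. *Mxd1*, whose product accompanies terminal differentiation in many lineages, had 50.7, 44.3, 45.6 and 44.2 CPM in WT-ERG cells. In P199L-ERG cells *Mxd1* had 52.8, 48.4, 49.3 and 45.2 CPM. BB cells had 59.4, 55.9, 53.6 and 56.5 CPM of *Mxd1*. Neither ERG group overlapped the BB group, and the ERG groups overlapped each other. *Mxd1* was 0.29 ± 0.06 lower for WT-ERG against BB (edgeR adjusted p = 0.000839) and 0.20 ± 0.06 lower in P199L-ERG than in BB cells (0.017). The P199L-ERG call was lost without BB replicate 1 (-0.17, adjusted p = 0.06) and without P199L-ERG replicate 4 (-0.17, 0.0548).

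*Mxd3*, an MXD gene known from S-phase cells, had 10.2, 11.4, 12.4 and 12.1 CPM in WT-ERG cells with DMSO, against 14.2, 14.9, 15.1 and 13.8 CPM in BB cells with DMSO. The 2 groups did not overlap, and the difference was -0.33 ± 0.08 (edgeR adjusted p = 0.00306). In P199L-ERG cells the level was 14.5, 12.6, 15.2 and 11.8 CPM, which overlapped both other groups and differed from BB by -0.10 (interval -0.27 to 0.07, adjusted p = 0.398). *Mxd3* was 0.23 ± 0.08 higher in P199L-ERG than in WT-ERG cells, which did not pass the threshold (0.139) in all libraries but did without P199L-ERG replicate 4 (0.30, 0.0384). *Mxi1*, another MXD-type repressor, ranged from 76.5 to 81.3 CPM in WT-ERG cells and from 78.6 to 82.1 CPM in P199L-ERG cells, against 84.8 to 88.2 CPM in BB cells. Both ERG groups were below all BB libraries. Its differences from BB were small, at -0.13 ± 0.04 for WT-ERG (0.0086) and -0.10 ± 0.04 for P199L-ERG (0.0457). The P199L-ERG call held in 16 of 24 fits that left out 1 library, and was lost with no filter (0.190) and with these groups fitted alone (0.0886). The WT-ERG call was lost with no filter (0.0716).

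*Mlx* was the second gene that was higher in P199L-ERG than in BB cells. It had 108, 115, 109.9 and 104 CPM in P199L-ERG cells and 101, 96.6, 102 and 100.5 CPM in WT-ERG cells, against 93.1 to 101 CPM in BB cells. P199L-ERG cells had the highest levels, above all libraries of both other groups. The difference from BB was 0.18 ± 0.04 (edgeR adjusted p = 0.00129), and that from WT-ERG was 0.13 ± 0.04, which did not pass the threshold (0.0748). The WT-ERG difference passed in 1 of 24 fits that left out 1 library, the fit without P199L-ERG DMSO replicate 4 (0.0188). It also passed in 4 of 10 other fits, DESeq2 among them (0.0486), but not with no filter (0.331) or with these groups fitted alone (0.390). *Max*, *Mxd4*, *Mnt* and *Mga* did not pass the test between any pair of constructs with DMSO. *Max*, for example, differed by 0.03 between WT-ERG and BB cells, with an interval of -0.06 to 0.12.

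**Figure D2:**
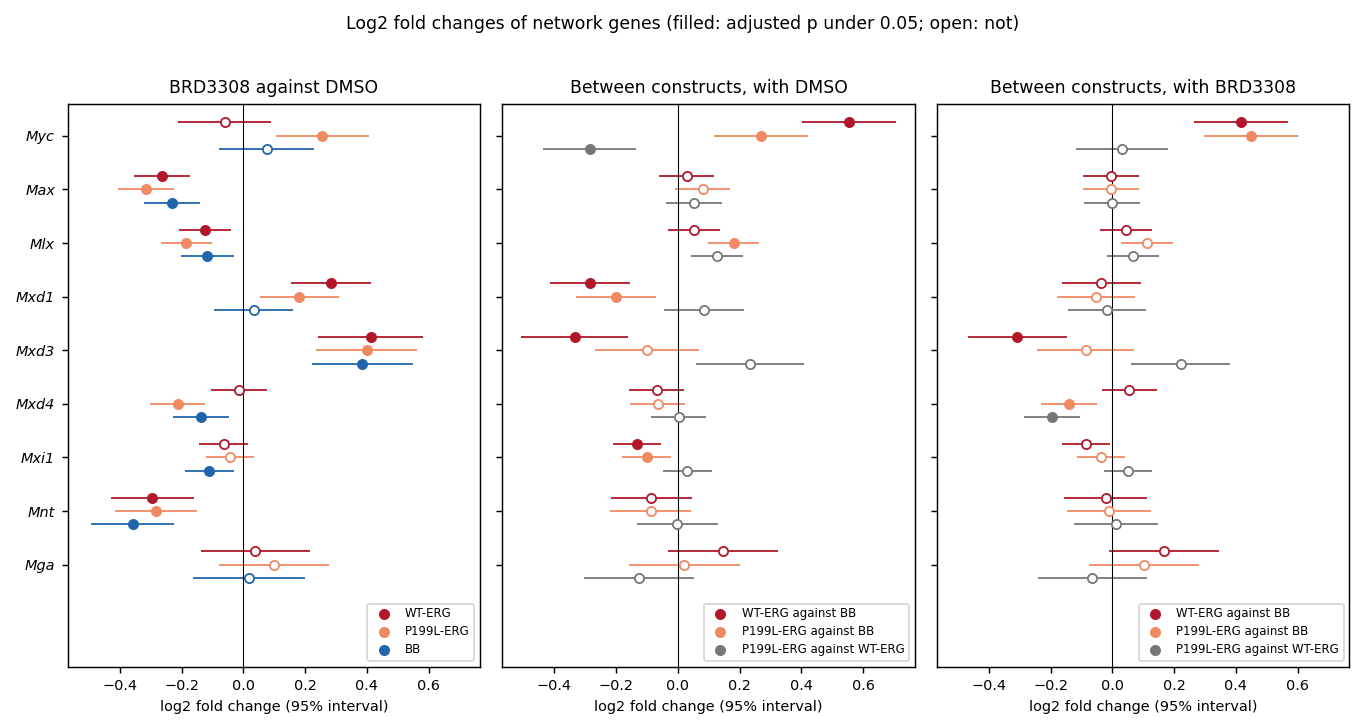
Log2 fold changes of the 9 tested genes with 95% intervals, for BRD3308 against DMSO in each construct (left) and between constructs with DMSO (middle) or BRD3308 (right). Filled points passed an adjusted p of 0.05. *Max* and *Mnt* are left of 0 and *Mxd3* right of 0 in all 3 constructs with BRD3308, while *Myc* stands right of 0 in both ERG constructs against BB.

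The second question was how HDAC inhibition changed the network in each construct. In WT-ERG cells 2 of the 9 genes rose and 3 fell with BRD3308, where 48% of all genes were called, 24.7% higher and 23.2% lower. In P199L-ERG cells 3 rose and 4 fell, where 48.5% of all genes were called, 24.4% higher and 24.1% lower. In BB cells 1 rose and 5 fell, where 45.9% of all genes were called, 24% higher and 22% lower. *Max*, *Mnt* and *Mlx* fell and *Mxd3* rose in all 3 constructs. The markers of other myeloid states moved at the same time. The summed level of 8 monocyte and macrophage genes was 2394 to 2651 CPM with BRD3308 and 800.0 to 881 CPM with DMSO in WT-ERG cells, 2794 to 2972 against 1066 to 1157 CPM in P199L-ERG cells, and 3582 to 3841 against 1776 to 1938 CPM in BB cells. All 8 of these genes passed the test in each construct, and 9 tested neutrophil genes gave 4 to 5 higher and 0 to 1 lower. The summed level of 6 mast cell and basophil genes was lower in each construct. It was 154 to 170 CPM with BRD3308 and 303 to 338 CPM with DMSO in WT-ERG cells. The ranges were 125 to 130 against 231 to 277 CPM in P199L-ERG cells, and 71.0 to 77.2 against 125 to 137 CPM in BB cells. Of 5 tested genes, 1 was lower in each construct, and 1 was higher in P199L-ERG and in BB cells. *Cpa3* had means of 65.6 against 221 CPM in WT-ERG, 46.2 against 172 CPM in P199L-ERG and 24.8 against 84.6 CPM in BB cells. *Gata2* had 20.9 against 16.4 CPM in P199L-ERG and 13.7 against 7.24 CPM in BB cells. All 3 tested dendritic cell genes were higher in each construct. Of 4 tested megakaryocyte genes, 3 were higher and 1 lower in each construct. The progenitor genes were split. Of 8 tested, 2 were higher in each construct, and 4, 4 and 5 were lower in WT-ERG, P199L-ERG and BB cells. In WT-ERG cells *Elane* had means of 2146 CPM with BRD3308 and 835 CPM with DMSO, and *Prtn3* 2773 and 3312 CPM. The part of these cell states in the network's changes was not tested, and in bulk RNA a change in the share of cells of a type and a change in RNA per cell cannot be told apart.

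*Max* had 123, 122, 118 and 114 CPM with BRD3308 in WT-ERG cells, against 147, 142, 139 and 145 CPM with DMSO. P199L-ERG cells had 122, 123, 118 and 114 CPM of *Max* with BRD3308, against 142, 143, 145 and 165 CPM with DMSO. BB cells had 126, 122, 116 and 114 CPM with BRD3308, against 143, 137, 143 and 139 CPM with DMSO. Treated and untreated libraries were separate in each construct, and the treated levels of the 3 constructs were nearly the same. *Max* fell by 0.26 ± 0.04 in WT-ERG, 0.32 ± 0.04 in P199L-ERG and 0.23 ± 0.04 in BB cells on the log2 scale. The edgeR adjusted p-values were 1.59e-05, 1.05e-06 and 9.91e-05, in that order.

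*Mnt*, which encodes a broadly expressed MAX-binding repressor, had 51.0, 45.8, 44.8 and 52.1 CPM with BRD3308 in WT-ERG cells, against 53.6, 59.6, 59.4 and 64.8 CPM with DMSO. In P199L-ERG cells its level was 48.6, 47.0, 46.5 and 53.0 CPM with BRD3308, against 55.1, 61.5, 59.2 and 61.3 CPM with DMSO. In BB cells it was 47.7, 47.0, 48.2 and 53.6 CPM with BRD3308, against 59.6, 58.0, 66.4 and 68.3 CPM with DMSO. No treated library reached the untreated range of its construct. *Mnt* fell by 0.29 ± 0.07 in WT-ERG (edgeR adjusted p = 0.000453), by 0.28 ± 0.06 in P199L-ERG (0.0007) and by 0.36 ± 0.07 in BB cells (4.72e-05). The calls of *Max* and *Mnt* held in every fit that left out 1 library and in all 10 other alternative fits.

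*Mlx* ranged from 89.1 to 94.3 CPM with BRD3308 and from 96.6 to 102 CPM with DMSO in WT-ERG cells. The ranges were 90.8 to 98.2 against 104 to 115 CPM in P199L-ERG cells, and 83.0 to 92.1 against 93.1 to 101 CPM in BB cells. The groups did not overlap in any construct, but the differences were small, at -0.13 ± 0.04 in WT-ERG (edgeR adjusted p = 0.0128), -0.19 ± 0.04 in P199L-ERG (0.000416) and -0.12 ± 0.04 in BB cells (0.0222). The WT-ERG and BB calls were lost without a filter on low counts (0.0963 and 0.0961) and with more than 30 reads required in every library (0.0584 and 0.0646). The BB call was also lost without BB BRD3308 replicate 4 (0.0922) or BB DMSO replicate 1 (0.0876). *Mlx* shares 385 exonic bases, 19.3% of its own, with *Psmc3ip* on the opposite strand, and the strand setting of the counts is not given in the sources used here, so reads there cannot be told apart. *Psmc3ip* fell by 0.77, 0.73 and 0.56 with BRD3308 in WT-ERG, P199L-ERG and BB cells, at a mean level of 26.5 CPM over all libraries against 97.0 CPM for *Mlx*.

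*Mxd3* moved the other way. In WT-ERG cells it had 14.5, 14.7, 17.4 and 14.6 CPM with BRD3308, against 10.2, 11.4, 12.4 and 12.1 CPM with DMSO. P199L-ERG cells had 16.9, 17.9, 17.2 and 19.5 CPM with BRD3308, against 14.5, 12.6, 15.2 and 11.8 CPM with DMSO. In BB cells *Mxd3* had 18.9, 18.8, 19.6 and 18.6 CPM with BRD3308, against 14.2, 14.9, 15.1 and 13.8 CPM with DMSO. Every treated library was above the untreated libraries of its construct. The log2 rise was nearly equal, at 0.41 ± 0.08 in WT-ERG (edgeR adjusted p = 0.000173), 0.40 ± 0.08 in P199L-ERG (0.000143) and 0.39 ± 0.08 in BB cells (0.000222). With BRD3308 *Mxd3* was still 0.31 ± 0.08 lower for WT-ERG against BB (0.00457). *Mxd3* overlaps *Prelid1* on the opposite strand by 105 exonic bases, 4.43% of its own, and *Prelid1* had a mean of 300.1 CPM against 15.3 CPM. *Prelid1* did not rise in any construct with BRD3308 and fell by 0.22 in P199L-ERG cells (0.00113). With DMSO *Prelid1* was 0.24 higher in P199L-ERG than in BB cells (0.00111). For WT-ERG against BB it was 0.13 higher, which did not pass the threshold (0.059). As for *Mlx*, reads in the shared bases cannot be told apart.

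*Mxd1* rose in the ERG-expressing cells. With BRD3308 it had 61.4, 56.0, 51.7 and 55.7 CPM in WT-ERG cells, 61.9, 52.8, 51.8 and 55.6 CPM in P199L-ERG cells and 61.6, 54.2, 55.8 and 58.9 CPM in BB cells. Set against the DMSO values above, the WT-ERG groups did not overlap and the P199L-ERG and BB groups did. *Mxd1* rose by 0.28 ± 0.06 in WT-ERG (edgeR adjusted p = 0.000479) and by 0.18 ± 0.06 in P199L-ERG cells (0.0181), and differed by 0.03 in BB cells (interval -0.09 to 0.16, 0.693). The P199L-ERG call was lost without P199L-ERG BRD3308 replicate 1 (0.12, adjusted p = 0.122), without P199L-ERG DMSO replicate 4 (0.14, 0.0789) and with these groups fitted alone (0.17, 0.0717). With BRD3308, *Mxd1* in WT-ERG cells differed from BB by -0.04 (interval -0.16 to 0.09). The difference between the responses of WT-ERG and BB cells was 0.25 ± 0.09 and did not pass the threshold (unadjusted p = 0.0087, adjusted p = 0.218).

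*Mxd4* and *Mxi1* fell in some constructs. *Mxd4* had 87.0, 77.9, 85.0 and 85.0 CPM with BRD3308 in P199L-ERG cells, against 92.6, 97.3, 96.9 and 101 CPM with DMSO. In BB cells it had 93.4, 92.0, 91.1 and 92.8 CPM with BRD3308, against 102, 98.6, 95.5 and 111 CPM with DMSO. In WT-ERG cells the ranges overlapped, at 93.3 to 100.2 CPM with BRD3308 and 92.9 to 99.2 CPM with DMSO. *Mxd4* fell by 0.21 ± 0.04 in P199L-ERG (edgeR adjusted p = 0.000214) and by 0.14 ± 0.04 in BB cells (0.0113), and differed by -0.01 in WT-ERG cells (interval -0.10 to 0.08). The BB call was lost without BB DMSO replicate 4 (-0.10, 0.0741). The responses of P199L-ERG and WT-ERG cells differed by -0.20 ± 0.06, which did not pass the threshold (unadjusted p = 0.0034, adjusted p = 0.62). *Mxi1* fell by 0.11 ± 0.04 in BB cells (0.0193), with 76.6 to 82.9 CPM with BRD3308 against 84.8 to 88.2 CPM with DMSO, and that call was lost without BB replicate 4 of either treatment (0.0525 for BRD3308, 0.0518 for DMSO), with no filter (0.142) and with more than 30 reads required (0.057).

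*Myc* passed the test for BRD3308 in P199L-ERG cells only. With BRD3308 it had 222, 216, 219 and 202 CPM in WT-ERG cells, 206, 232, 222 and 216 CPM in P199L-ERG cells and 159, 182, 153 and 149 CPM in BB cells. It rose by 0.26 ± 0.07 in P199L-ERG cells (edgeR adjusted p = 0.0052), with 1 treated library inside the untreated range. Without P199L-ERG DMSO replicate 4, which was the lowest library of its group, the rise was 0.15 (0.0329). *Myc* differed by -0.06 in WT-ERG cells (interval -0.21 to 0.09, 0.521) and by 0.08 in BB cells (interval -0.08 to 0.23, 0.435). The responses of P199L-ERG and WT-ERG cells differed by 0.32 ± 0.10, which did not pass the threshold (unadjusted p = 0.00513, adjusted p = 0.62). *Mga*, the largest of the MAX partners, passed no comparison in the main edgeR fit, with group means of 71.6 to 81.3 CPM. Its transcript is the longest here, at 15340 exonic bases, and its 2 lowest libraries, with 63.0 and 64.1 CPM, were the 2 that stood apart by exon length. Without WT-ERG DMSO replicate 4, *Mga* was 0.23 higher for WT-ERG against BB with DMSO (adjusted p = 0.0367), against 0.15 (0.225) with all libraries, and it also passed without both libraries of number 4 (0.0151) and with the slope on exon length (0.0087). With BRD3308 it was 0.17 higher for the same constructs (0.190), which passed with the groups fitted alone (0.0415), with no filter (0.0242) and with the slope (0.00177).

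With BRD3308 present, *Myc* remained higher in both ERG constructs than in BB cells, without overlap, by 0.42 ± 0.07 in WT-ERG (edgeR adjusted p = 9.27e-05) and by 0.45 ± 0.07 in P199L-ERG cells (5.58e-05). The ERG constructs then differed by 0.03 (interval -0.12 to 0.18). In order of mean level, *Myc* had 224 CPM in WT-ERG cells with DMSO, 219 in P199L-ERG with BRD3308, 214 in WT-ERG with BRD3308, 183 in P199L-ERG with DMSO, 161 in BB with BRD3308 and 152 in BB with DMSO. The ranges of every neighbouring pair in this order overlapped. With BRD3308, 1 of the 9 genes was higher and 1 lower for WT-ERG against BB, where 21.1% of all genes were called, 10.4% higher and 10.7% lower. For P199L-ERG against BB it was likewise 1 and 1, where 16.9% of all genes were called, 8.12% higher and 8.81% lower. The genes called besides *Myc* were *Mxd3* for WT-ERG and *Mxd4* for P199L-ERG, at -0.14 ± 0.04 (0.0254). Between P199L-ERG and WT-ERG cells 0 were higher and 1, *Mxd4*, was lower, at -0.20 ± 0.04 (0.00699), where 3.4% of all genes were called, 1.31% higher and 2.09% lower. Both *Mxd4* calls were lost without P199L-ERG BRD3308 replicate 2, the lowest library, at -0.11 (0.0949) against BB and -0.16 (0.0545) against WT-ERG.

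No difference between the responses of 2 constructs passed the test for any of the 9 genes in the main edgeR fit, while some other settings gave calls for *Mxd1* and *Myc*. Over all genes 1.73% were called for WT-ERG against BB (0.825% higher, 0.903% lower), 1.05% for P199L-ERG against BB (0.455% higher, 0.594% lower) and 0.0463% for P199L-ERG against WT-ERG (0.0231% higher, 0.0231% lower). In edgeR, 1, 0 and 2 of the 9 had an unadjusted p under 0.05 in these 3 comparisons, namely *Mxd1* in the first and *Myc* and *Mxd4* in the last. DESeq2 and limma-voom called 0 in each. Other settings did change these calls. With the slope on exon length as a covariate *Mxd1* passed in the first comparison (adjusted p = 0.0168) and *Myc* in the last (0.0167), and *Myc* also passed with no filter (0.00202). With the replicate number as a block, *Mxd1* passed in the first comparison (0.0105) and *Myc* in the last (0.0469).

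**Figure D3:**
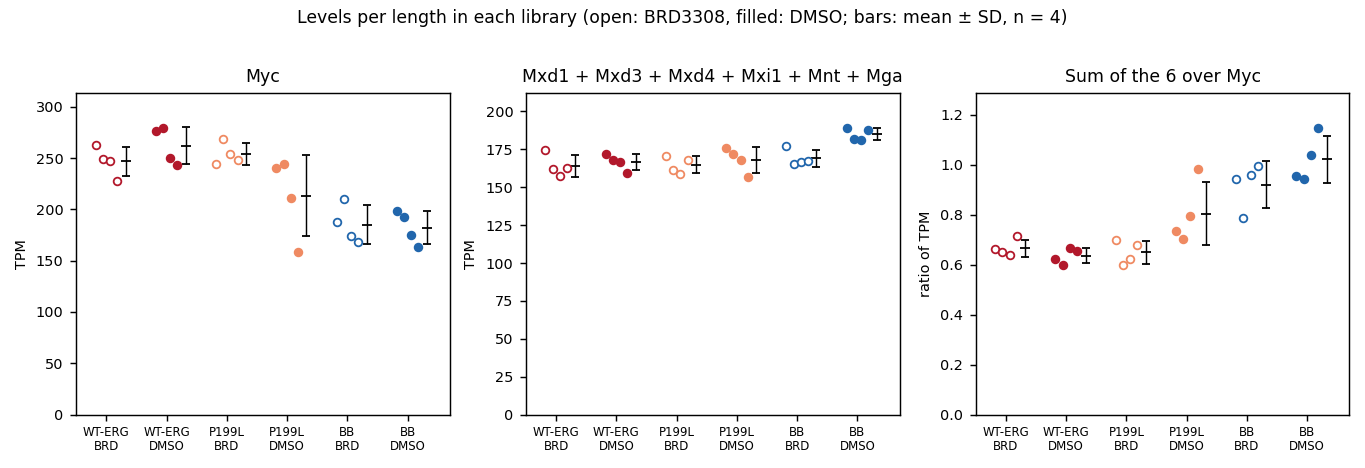
Levels per length in each of 24 libraries, as TPM of *Myc* (left), summed TPM of the 6 MAX-binding repressor genes (middle) and the ratio of that sum to *Myc* (right). Open circles are BRD3308 and filled circles DMSO, and bars give the mean and SD of 4 libraries. The mean ratio is 0.637 to 0.666 in WT-ERG cells and in P199L-ERG cells with BRD3308, 0.805 in P199L-ERG cells with DMSO, and 0.921 and 1.02 in BB cells with BRD3308 and DMSO.

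Set per length, the network can be described by the summed level of the 6 MAX-binding repressor genes (*Mxd1*, *Mxd3*, *Mxd4*, *Mxi1*, *Mnt* and *Mga*) relative to *Myc*. In TPM this ratio was 0.666 ± 0.03 with BRD3308 and 0.637 ± 0.03 with DMSO in WT-ERG cells (mean ± SD, n = 4). In P199L-ERG cells it was 0.650 ± 0.05 with BRD3308 and 0.805 ± 0.13 with DMSO, and in BB cells 0.921 ± 0.09 with BRD3308 and 1.02 ± 0.09 with DMSO. The WT-ERG libraries lay at 0.601 to 0.714 over both treatments, below all BB libraries, which lay at 0.785 to 1.15. P199L-ERG cells with DMSO had 0.734, 0.704, 0.796 and 0.985, so that replicates 3 and 4 fell within the BB range. The summed repressor level was alike in WT-ERG cells with BRD3308 (164 TPM), WT-ERG cells with DMSO (167 TPM), P199L-ERG cells with BRD3308 (165 TPM), P199L-ERG cells with DMSO (168 TPM) and BB cells with BRD3308 (169 TPM), and was 185 TPM in BB cells with DMSO. *Max* per *Myc* was 0.420 with BRD3308 and 0.484 with DMSO in WT-ERG cells, against 0.565 and 0.699 in BB cells under the same treatments. These ratios are descriptions of RNA and were not tested.

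Over the 6 group means, *Mxd3* spanned 0.72 and *Myc* 0.56 on the log2 scale, and each of the other 7 tested genes spanned less than 0.5, against a median of 0.38 over all genes tested. A span larger than that of *Mxd3* was seen in 22.0% of tested genes, and one larger than that of *Myc* in 31.9%. Among the genes whose log2 CPM most resembled *Myc* over the 24 libraries were *Rap2a* (Pearson r = 0.90) and *Clnk* (0.90). Among those most like *Mxd3* were *Dnajc12* (0.93) and *Tspoap1* (0.92). These libraries share constructs and treatments, and *Clnk* was low, with a mean of 0.415 CPM.

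The genes that MYC is known to activate were examined as a list of 37 tested genes, most of them for ribosome production, nucleotide and polyamine synthesis, chaperones and cell division. With DMSO, 33 of the 37 were higher and 0 lower for WT-ERG against BB, where 15.6% of all genes were higher. The median log2 fold change of the list was 0.27, against 0.01 for all genes. *Ccnd2*, a D-type cyclin, had a mean level of 138 CPM in WT-ERG and 97.3 CPM in BB cells, and was 0.50 ± 0.05 higher (edgeR adjusted p = 7.19e-10). *Srm*, spermidine synthase, was 0.42 ± 0.04 higher (1.12e-09) and *Ldha*, lactate dehydrogenase A, 0.29 ± 0.03 higher (5.70e-09). In P199L-ERG cells 27 of the 37 were higher and 0 lower than in BB cells, where 15.3% of all genes were higher, with a median of 0.21. Between P199L-ERG and WT-ERG cells 0 were higher and 2 lower, where 2.45% of all genes were lower, namely *Polr1b* (-0.26 ± 0.06, 0.0153) and *Ccnd2* (-0.16 ± 0.04, 0.0348). That last count was 0 without WT-ERG DMSO replicate 1 or 2, 1 without WT-ERG DMSO replicate 3 or P199L-ERG DMSO replicate 2 or 3, and 5 without P199L-ERG DMSO replicate 4.

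With BRD3308 the same list ran the other way. In WT-ERG cells 33 of the 37 genes fell and 0 rose, where 23.2% of all genes fell, with a median of -0.30. In P199L-ERG cells 29 fell and 1 rose, where 24.1% of all genes fell, with a median of -0.23, and in BB cells 26 fell and 2 rose, where 22% of all genes fell, with a median of -0.19. *Rrs1*, a ribosome assembly factor, had mean levels of 54.6 CPM with BRD3308 and 84.3 CPM with DMSO in WT-ERG cells. It fell by 0.63 ± 0.05 in WT-ERG (edgeR adjusted p = 3.10e-11), by 0.48 ± 0.05 in P199L-ERG (4.83e-09) and by 0.49 ± 0.05 in BB cells (6.15e-09). *Pa2g4*, which encodes a proliferation-associated protein, and *Bop1*, a ribosomal RNA processing factor, fell by 0.35 ± 0.03 (1.75e-10) and 0.43 ± 0.04 (2.35e-09) in WT-ERG cells. *Rrp12*, which acts in ribosome export, and *Eif4a1*, a translation initiation helicase, fell by 0.45 ± 0.05 (3.73e-08) and 0.35 ± 0.04 (8.44e-08) in P199L-ERG cells. The same 2 genes fell by 0.46 ± 0.05 (2.99e-08) and 0.30 ± 0.04 (1.06e-06) in BB cells. Against the list, *Tfrc*, the transferrin receptor, rose by 0.08 ± 0.03 in P199L-ERG cells (0.0402), and *Nop56*, a nucleolar protein, rose by 0.16 ± 0.04 in BB cells (0.00145), as did *Dnph1*, a nucleotide hydrolase gene, by 0.23 ± 0.07 (0.0113). The fall of these genes was measured in WT-ERG and BB cells, in which the level of *Myc* did not pass the test, and in P199L-ERG cells, in which it rose. These are levels of RNA, which do not give the level of MYC protein, and the part of MYC in the fall of its target genes was not tested.

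**Figure D4:**
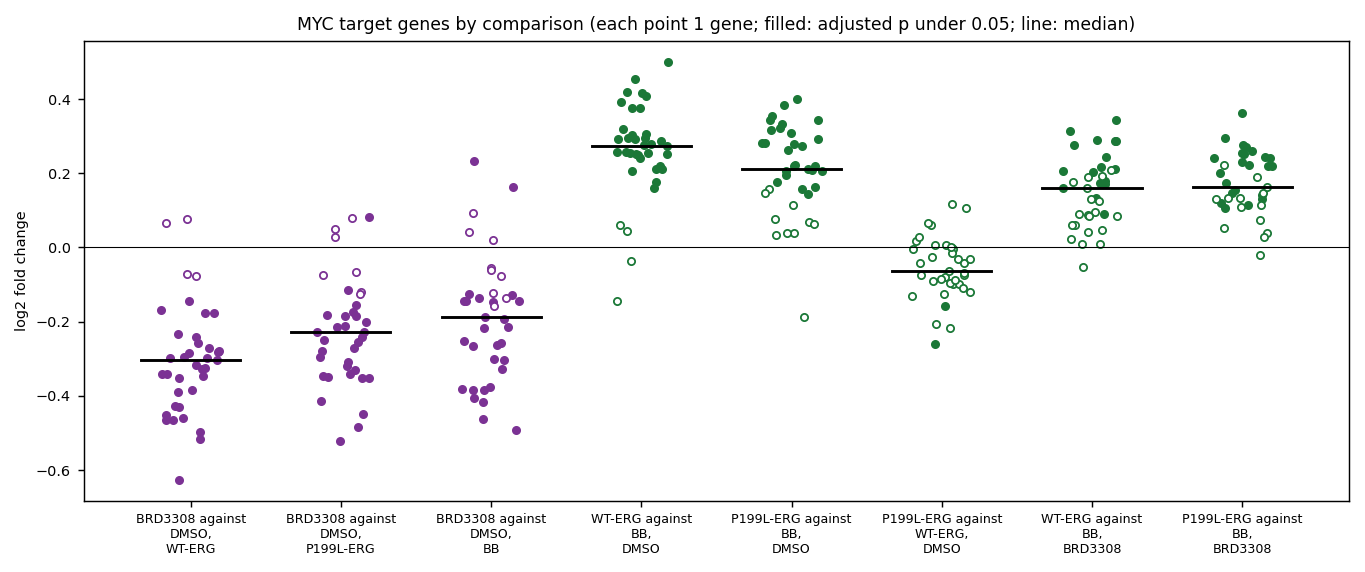
Log2 fold changes of 37 MYC target genes in 8 comparisons, each point 1 gene, filled where the adjusted p was under 0.05, with the median as a line. With BRD3308 the medians are -0.30, -0.23 and -0.19 in WT-ERG, P199L-ERG and BB cells, and against BB with DMSO they are 0.27 in WT-ERG and 0.21 in P199L-ERG cells. Comparisons with a group in common share its libraries.

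The BRD3308 comparison in WT-ERG cells and the comparison of WT-ERG with BB share the DMSO-treated WT-ERG libraries, so their opposite signs are not independent. The comparisons between constructs with BRD3308 do not use those libraries. With BRD3308 in both, 17 of the 37 genes were higher and 0 lower for WT-ERG against BB, where 10.4% of all genes were higher, with a median of 0.16. In P199L-ERG cells with BRD3308 23 were higher and 0 lower than in BB cells, where 8.12% of all genes were higher, with a median of 0.16. The difference in response does use them. The response of WT-ERG cells was lower than that of BB cells for 4 of the 37 genes and higher for 0, where 0.903% of all genes were lower. These were *Odc1*, ornithine decarboxylase (-0.32 ± 0.08, edgeR adjusted p = 0.0217), *Nop56* (-0.23 ± 0.06, 0.0225), *Ldha* (-0.16 ± 0.04, 0.0424) and *Pa2g4* (-0.16 ± 0.04, 0.0465), and the count ran from 0 without WT-ERG DMSO replicate 2 to 7 without P199L-ERG DMSO replicate 4. It was 1 or 2 without any of 9 other libraries: WT-ERG BRD3308 replicates 1 and 2, WT-ERG DMSO replicate 3, BB BRD3308 replicates 2 and 3, and BB DMSO replicates 1 to 4. For P199L-ERG against BB 0 of the 37 genes differed in response, where 1.05% of all genes were called. Between P199L-ERG and WT-ERG cells it was also 0, where 0.0463% of all genes were called, so the direct comparison of the ERG constructs gave no difference. The E-box was found in the windows of 12 of 29 target genes, or 41.4%, against 8.09% of all genes with a window. The ETS-type motif was in the windows of 5, or 17.2%, against 9.93% of all genes. Of these 5, *Hspd1* and *Hspe1* lie head to head and share the same stretch with the motif, so they are not separate sites. Neither share was tested.

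Genes that MYC is known to repress with MIZ1 gave 3 higher and 0 lower of 5 tested with BRD3308 in each construct, with medians of 0.28, 0.20 and 0.20 in WT-ERG, P199L-ERG and BB cells, where the medians of all genes were between -0.01 and 0.01 and 24.7%, 24.4% and 24% of all genes were higher. *Ndrg1*, a growth-arrest gene, rose by 0.87 ± 0.04 in WT-ERG (edgeR adjusted p = 5.98e-16), 0.77 ± 0.04 in P199L-ERG (9.75e-15) and 0.96 ± 0.04 in BB cells (1.03e-16). *Cdkn1a*, the p21 cell cycle inhibitor, had mean levels of 142 CPM with BRD3308 and 78.5 CPM with DMSO in WT-ERG cells, and rose by 0.85 ± 0.06 in WT-ERG (1.00e-12), 0.76 ± 0.06 in P199L-ERG (1.45e-11) and 1.27 ± 0.06 in BB cells (3.20e-16). The rise of *Cdkn1a* was smaller by 0.42 ± 0.08 in WT-ERG cells relative to BB (0.00363 for the difference). Among the 5 genes, the difference in response was lower for 1 in WT-ERG against BB and for 1 in P199L-ERG against BB. Of all genes, 0.903% and 0.594% were lower in these 2 comparisons. Between P199L-ERG and WT-ERG cells 0 of the 5 were called, where 0.0463% of all genes were. *Cdkn1b*, the p27 inhibitor, rose by 0.28 ± 0.07 (0.0025), 0.20 ± 0.07 (0.0296) and 0.20 ± 0.07 (0.0312) in WT-ERG, P199L-ERG and BB cells. With DMSO, *Cdkn1a* was 0.45 ± 0.06 higher (9.45e-07) and *Ndrg1* 0.22 ± 0.04 higher (0.000247) in WT-ERG cells relative to BB, and *Btg1*, an antiproliferative gene, was 0.41 ± 0.11 lower (0.00504). So 2 of the 5 were higher and 1 lower, where 15.6% of all genes were higher and 14.1% lower.

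Among 18 genes for MYC cofactors and regulators of MYC stability, 9, 6 and 7 fell and 0 rose with BRD3308 in WT-ERG, P199L-ERG and BB cells, with medians of -0.15, -0.10 and -0.15, where 23.2%, 24.1% and 22% of all genes fell. *Actl6a*, a subunit of chromatin remodelling complexes, fell by 0.41 ± 0.04 (edgeR adjusted p = 3.13e-09), 0.39 ± 0.04 (7.08e-09) and 0.35 ± 0.04 (5.41e-08). *Ruvbl2*, a helicase of the TIP60 complex, fell by 0.41 ± 0.04, 0.35 ± 0.04 and 0.28 ± 0.04, and *Kat2a*, the GCN5 acetyltransferase, by 0.36 ± 0.05, 0.33 ± 0.05 and 0.32 ± 0.05. With DMSO, 6 of the 18 were higher and 0 lower for WT-ERG against BB, where 15.6% of all genes were higher, with *Ruvbl2* at 0.32 ± 0.04 (5.99e-07), *Cip2a*, which stabilises MYC protein, at 0.24 ± 0.04 (8.83e-06) and *Ruvbl1* at 0.43 ± 0.07 (2.16e-05).

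The SIN3 and HDAC partners through which MXD proteins and MNT repress gave 1, 1 and 2 higher and 9, 10 and 8 lower of 17 with BRD3308 in WT-ERG, P199L-ERG and BB cells, with medians of -0.20, -0.20 and -0.13. Of all genes, 24.7%, 24.4% and 24% were higher and 23.2%, 24.1% and 22% lower in these comparisons. Between WT-ERG and BB cells with DMSO the median was 0.02 and edgeR called 0 of the 17, while 1, *Rbbp7*, had an unadjusted p under 0.05 (0.0165). *Ing1*, a SIN3 subunit that reads histone H3 methylation, fell by 0.37 ± 0.05 (edgeR adjusted p = 3.36e-07), 0.43 ± 0.05 (1.96e-08) and 0.41 ± 0.05 (4.84e-08). The scaffold gene *Sin3a* fell by 0.37 ± 0.06 (2.11e-05) in WT-ERG cells. Its paralogue *Sin3b* fell by 0.32 ± 0.04 in P199L-ERG (4.61e-07) and 0.22 ± 0.04 in BB cells (9.91e-05). *Ing2* fell by 0.50 ± 0.09 in WT-ERG (7.20e-05), *Brms1* by 0.48 ± 0.07 in P199L-ERG (2.59e-06) and *Suds3* by 0.23 ± 0.04 in BB cells (6.57e-05), all genes of SIN3 complex subunits. *Hdac1* rose by 0.15 ± 0.04 (0.00645), 0.13 ± 0.04 (0.0133) and 0.19 ± 0.04 (0.000626).

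The partners of MGA in the Polycomb complex PRC1.6 gave 5, 4 and 4 lower and 0 higher of 10 with BRD3308 in WT-ERG, P199L-ERG and BB cells, with medians of -0.15, -0.06 and -0.08, where 23.2%, 24.1% and 22% of all genes fell. *L3mbtl2*, a defining subunit, fell by 0.45 ± 0.05, 0.42 ± 0.05 and 0.54 ± 0.05 (edgeR adjusted p = 5.81e-09, 2.23e-08 and 2.67e-10). The ubiquitin ligase gene *Rnf2* fell by 0.36 ± 0.05, 0.23 ± 0.05 and 0.29 ± 0.05, and *Cbx1*, a heterochromatin protein 1 gene, by 0.20 ± 0.05, 0.17 ± 0.05 and 0.21 ± 0.05. For WT-ERG against BB with DMSO, 2 of these genes were higher and 1 lower, where 15.6% of all genes were higher and 14.1% lower. *E2f6*, the DNA-binding repressor subunit, had mean levels of 22.3 CPM in WT-ERG and 13.9 CPM in P199L-ERG cells with DMSO, against 8.58 CPM in BB cells with DMSO. *E2f6* was 1.38 ± 0.09 higher for WT-ERG against BB (1.16e-12), 0.71 ± 0.10 higher in P199L-ERG than in BB cells and 0.68 ± 0.08 lower in P199L-ERG than in WT-ERG cells. *Pcgf6*, another defining subunit, was 0.57 ± 0.09 higher for WT-ERG against BB (1.23e-05), and *Tfdp1*, an E2F partner, was 0.14 ± 0.03 lower (0.00118).

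On the MLX side, *Mlxip*, which encodes MondoA, rose by 0.18 ± 0.06 in WT-ERG (edgeR adjusted p = 0.0132) and 0.17 ± 0.06 in P199L-ERG cells (0.0194) with BRD3308, and differed by -0.03 in BB cells. *Mlxipl*, which encodes ChREBP, was scarce at 8 to 51 counts per library and rose by 1.59 ± 0.24 (3.33e-06), 0.82 ± 0.24 (0.00516) and 1.42 ± 0.23 (8.68e-06) in WT-ERG, P199L-ERG and BB cells. Of 7 tested genes known as MondoA and MLX targets, 0, 0 and 1 rose and 3, 2 and 2 fell with BRD3308 in these cells, with medians of -0.12, 0.00 and 0.09. Of all genes, 23.2%, 24.1% and 22% fell, so that the counts of 2 in P199L-ERG and BB cells are near the share of all genes. *Arrdc4*, an arrestin-like regulator of glucose uptake, had mean levels of 1.16 CPM with BRD3308 and 3.03 CPM with DMSO in WT-ERG cells, and fell by 1.37 ± 0.29 (0.000317), 1.30 ± 0.23 (3.85e-05) and 1.30 ± 0.22 (1.66e-05). *Tkt*, transketolase, fell by 0.14 ± 0.04 (0.00726), 0.26 ± 0.04 (1.09e-05) and 0.18 ± 0.04 (0.00119). *Klf10* fell by 0.25 ± 0.09 in WT-ERG cells (0.0287), and *Arrdc3*, a relative of *Arrdc4*, rose by 0.58 ± 0.21 in BB cells (0.021). With DMSO *Arrdc4* was 1.10 ± 0.21 lower (0.000187) and *Tkt* 0.22 ± 0.04 lower (0.000228) in WT-ERG cells relative to BB.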

How the data were processed

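RNA was sequenced from 24 libraries, 4 in each of 6 groups taken from the labels. The deposited values are raw counts of reads per gene. Before counting, the authors removed reads under 30 bp and aligned to GRCm38 with STAR, and cutadapt, HTSeq and DESeq2 are further tools in the submitters' processing notes. For the annotation and the strand setting, the sources used here give nothing. Symbols and exon lengths came from GENCODE M21, which matched 53706 of 53801 genes.

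Genes were kept with filterByExpr, scaled with TMM factors and fitted with edgeR 4.0.16 (R 4.3.3) by the quasi-likelihood method, with 1 coefficient per group over all libraries. Two-sided p-values were Benjamini-Hochberg adjusted across 12963 genes, and genes under 0.05 were called. SE is the absolute log2 fold change over the square root of F, and intervals are at 95%. CPM used the TMM-scaled totals, and TPM the union of exons. The script was tested on simulated data. Replicate numbers were not taken as pairs in the main fit, since no label ties them. Same-numbered libraries deviated with r from -0.005 to 0.295, and 17 of 24 libraries resembled their own number most. The replicate number was therefore also run as a block.

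The members, the gene lists and the alternatives were chosen with earlier results of these data known. Named in the text are all members, the 3 genes with the smallest p among those called in each list in each BRD3308 comparison and in WT-ERG against BB with DMSO, the gene with the smallest p called against its list, and the 3 genes most correlated with *Myc* and with any member spanning over 0.5 log2, not all of which are reported here. Genes named for other comparisons were chosen after their values were seen. As alternatives, limma-voom 3.58.1, DESeq2 1.42.0, RLE scaling, scaling by total counts, no filter, more than 30 reads per library, a fit of only the groups at issue, an adjusted p under 0.01, the replicate number as a block, the slope on exon length, both DMSO-treated ERG libraries of number 4 left out, and each library left out were run.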

Additional observations from a re-analysis of the deposited data

Results flagged for a closer look

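In 5 of 54 groups of 4 libraries, 1 library lay far from the other 3 by Dixon's ratio at the 95% level. Chance gives about 1 in 20 such groups. *Max* had its highest value in DMSO-treated P199L-ERG cells at 165 CPM, in replicate 4, which also stood apart by exon length. *Mxd3* had a high value of 17.4 CPM in BRD3308-treated WT-ERG cells, in replicate 3. *Mlx* had a low value of 90.8 CPM in BRD3308-treated P199L-ERG cells, in replicate 4. *Mga* had high values of 81.0 CPM in BRD3308-treated and 76.3 CPM in DMSO-treated BB cells, both in replicate 1.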

How the results depend on the processing

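Across the alternatives, the fold changes of the 9 genes kept their direction wherever they were called. The counts of MYC target genes that fell with BRD3308 stayed within 1.5 times their value in each alternative, with 31 to 34, 27 to 30 and 24 to 30 as single libraries were left out of WT-ERG, P199L-ERG and BB comparisons, and so did those higher with DMSO in WT-ERG (30 to 33) and P199L-ERG (26 to 29) than in BB cells. At an adjusted p under 0.01 the number of network genes called was 3 instead of 6 for BRD3308 in BB cells, 2 instead of 4 for P199L-ERG against BB with DMSO, 0 instead of 1 for P199L-ERG against WT-ERG with DMSO, and 1 instead of 2 for P199L-ERG against BB with BRD3308, where the MYC target genes called numbered 15 instead of 23. With the groups compared alone it was 2 for P199L-ERG against BB and 0 for P199L-ERG against WT-ERG with DMSO. With the replicate number as a block, P199L-ERG against WT-ERG with DMSO gave 2 genes, and the differences in response gave 1 for WT-ERG against BB (*Mxd1*, adjusted p = 0.0105) and 1 for P199L-ERG against WT-ERG (*Myc*, 0.0469). With the slope on exon length these counts were 3, 1 (*Mxd1*, 0.0168) and 1 (*Myc*, 0.0167). No label ties the replicate numbers of the block to a shared culture or day. As a hint from the data, same-numbered libraries had a median correlation of 0.083 against -0.024 for other pairs, 29 of 60 were over 0.1, and 17 of 24 libraries resembled their own number most. *Mga* also passed with the block for WT-ERG against BB with DMSO (0.0231) and BRD3308 (0.0103). Without a filter, the difference in response of P199L-ERG against WT-ERG also gave 1 (*Myc*, 0.00202), and P199L-ERG against BB with BRD3308 gave 1. DESeq2, and leaving out both libraries of number 4, gave 2 for P199L-ERG against WT-ERG with DMSO. MYC target genes lower in that comparison numbered 6 without both libraries of number 4, 5 with the block, 5 with the slope, and 0 with the groups alone or at 0.01. For the WT-ERG against BB response, they numbered 8 without both libraries, 7 with the slope, 1 without a filter and 0 at 0.01. Leaving out single libraries gave 2 to 4 network genes for P199L-ERG against BB and 0 to 2 for P199L-ERG against WT-ERG with DMSO, 1 to 3 and 0 to 2 for these with BRD3308. For MYC target genes it gave 0 to 5 for P199L-ERG against WT-ERG with DMSO, 0 to 7 for the WT-ERG against BB response and 18 to 28 for P199L-ERG against BB with BRD3308. The cause was not tested. *Mycn* could not be tested at this depth.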
